A study of Mus musculus with 12 samples.

Results

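Seminal vesicles of adult aERKO mice and of adult wild-type (WT) mice were compared after both genotypes had received the synthetic estrogen diethylstilbestrol (DES) as newborns. The comparison set the 3 arrays of the aERKO_DES group against the 3 arrays of the WT_DES group, 6 of the 12 arrays of the series, and covered each gene that the platform annotation named by exactly 1 symbol. That rule gave 30063 genes from 72688 probe sets, and a gene with several probe sets was represented by the one with the highest mean over the 12 arrays. Of these genes, 20102 lay above the array's median on at least 3 of the 12 arrays and were tested, and 9961 did not.

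All animals were male and of C57BL/6 background, and the glands were taken at week 10. In the DES groups each pup was injected under the skin with 2 µg of DES per day in corn oil from day 1 to day 5, with the day of birth counted as day 1. The vehicle groups (WT_vehicle and aERKO_vehicle, 3 arrays each) received the same volume of corn oil, so every group carries the injections. aERKO denotes mice without a working estrogen receptor alpha. The labels give neither the targeted allele nor the cell types in which it was inactivated, and they do not say whether an array held RNA of 1 animal or of pooled animals. Because separate animals are not stated, p-values weigh a difference only against the spread of these arrays within groups, and that spread may be technical.

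Estrogen receptor alpha, the product of Esr1, is a nuclear receptor that binds estrogens, DES included, and then regulates genes through estrogen response elements in DNA or through other bound factors. The seminal vesicle is an accessory gland of the male tract whose secretory epithelium, kept active by androgens, makes the bulk of the seminal fluid proteins and is wrapped in smooth muscle. Estrogen given around birth, when the duct system is still forming, is known to alter the adult male tract for life. The comparison asks how the adult gland differs between mice with and without the receptor when both were exposed.

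Values are log2 expression, in which a difference of 1 is a 2-fold change. Over the 30063 genes the aERKO_DES arrays correlated with each other at 0.993 to 0.997 and the WT_DES arrays at 0.990 to 0.995. Pairs across the 2 genotypes correlated at 0.949 to 0.966, whereas aERKO_DES arrays and arrays of either vehicle group correlated at 0.991 to 0.998. The median SD over genes was 0.121 in WT_DES and 0.114 in aERKO_DES. With 3 arrays a group, the number of arrays limits the precision. Transcripts of the seminal vesicle were abundant in both groups: Svs4, which encodes a major secreted protein of the gland, read 13.77 in WT_DES and 13.87 in aERKO_DES.

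The 2 groups differed broadly. With limma and Benjamini-Hochberg adjustment, 10483 of the genes tested (52.1%) passed an adjusted p of 0.05, which is the threshold for every call here. In aERKO_DES 5529 (27.5%) were higher and 4954 (24.6%) lower, and counts of gene lists below are to be read beside these shares. Unadjusted p was below 0.05 for 11938 genes. The arrays of the 2 groups did not overlap for 11234 genes (55.9%). Large differences ran mostly downwards. Genes lower in aERKO_DES by a fold of at least 2 numbered 970 (4.83%), against 123 (0.612%) that were higher by as much. Past a fold of 4 the counts were 362 lower and 6 higher, and past a fold of 16 they were 112 lower and 0 higher. Of those 112 genes, 95 were immunoglobulin variable segments. A gene could pass the filter through the WT_DES arrays alone, so the counts of lower genes are partly set by the filter. With a stricter filter, above the 60th percentile on at least 6 arrays, 557 genes were lower and 122 higher by a fold of at least 2.

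The split of the small differences depended on how arrays were scaled. RNAs spiked in at hybridization read higher in aERKO_DES than in WT_DES by 0.22, and background control probe sets read higher by 0.41. The hybridization controls, 4 probe sets, read 11.50, 11.19 and 11.44 in WT_DES and 11.76, 11.67 and 11.36 in aERKO_DES, so the groups overlapped. With arrays shifted to the hybridization controls, 553 genes were higher and 5825 lower, and the median difference of the genes tested was -0.19 in place of 0.03. With arrays shifted to the same median of the tested genes, 7974 were higher and 3917 lower, and after quantile normalization 6609 were higher and 4083 lower. Of the 4954 lower genes, 3917 kept their call under the shift to the same median and 3860 after quantile normalization. Single smaller decreases named below are given as deposited only. All 123 and all 970 genes past a fold of 2 kept their call and sign under these 3 scalings, but with the shift to the hybridization controls 58 genes were higher and 1300 lower by a fold of at least 2. Where a smaller difference is named below as higher, its value under the shift to the hybridization controls is given beside it if its call was lost. That shift moves all genes of an array by the same amount, so its calls also carry the spread of the controls. Its adjusted p-values are not comparable with those of the main fit. For Smpx limma gave 1.76e-14 under the shift and 6.21e-07 without it, although the difference shrank from 2.40 to 2.18.

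Esr1 itself was lower in aERKO_DES. Its level was 7.74, 7.68 and 7.55 on the WT_DES arrays and 6.81, 6.99 and 6.90 on the aERKO_DES arrays. All aERKO_DES arrays lay below all WT_DES arrays, and the difference was -0.76 ± 0.08 (SE, limma adjusted p = 1.06e-05). Given vehicle the genotypes also differed by -0.76 (adjusted p = 0.00587), and the difference between the 2 comparisons was 0.00 (adjusted p = 0.992). The labels do not say which part of the gene was removed, so the signal that remains may include transcript without a working product. Esr2, which encodes estrogen receptor beta, was higher by 0.38 ± 0.07 (adjusted p = 0.00103), a call that was lost when arrays were shifted to the hybridization controls (0.16, adjusted p = 0.484).

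Among estrogen-responsive genes of the female tract, 15 of 26 tested were lower and 6 higher in aERKO_DES, and the list median was -0.54 beside 0.03 for all genes tested. With arrays shifted to the hybridization controls, 15 were lower and 0 higher, and with arrays shifted to the same median 15 were lower and 9 higher. Of its members, Ltf and Lcn2 are also in the neutrophil list, of which 17 of 22 genes were lower (median -1.86), and the part of neutrophils in the change was not tested. Lactoferrin, encoded by Ltf, binds iron and is induced by estrogen in the mouse uterus. Ltf read 11.64, 12.31 and 12.40 on the WT_DES arrays and 6.19, 6.25 and 6.90 on the aERKO_DES arrays. The groups lay far apart, and aERKO_DES was 50.9-fold lower (-5.67 ± 0.20, adjusted p = 3.3e-10). Its means in the vehicle groups were 6.34 in WT and 6.33 in aERKO, close to that of aERKO_DES (6.45).

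Clca3a2, a calcium-activated chloride channel regulator, read 11.60, 12.24 and 11.86 in WT_DES and 7.93, 7.78 and 7.94 in aERKO_DES, a 16.2-fold difference (-4.01 ± 0.13, adjusted p = 1.03e-10). Its neighbour in sequence Clca3a1 was 12.1-fold lower (-3.60 ± 0.14). The progesterone receptor gene Pgr, itself an estrogen target, was lower by a smaller amount: 6.80, 7.19 and 6.91 in WT_DES against 6.08, 6.26 and 6.09 in aERKO_DES (-0.83 ± 0.10, adjusted p = 3.43e-05). Muc1, which encodes a membrane mucin of the epithelial surface, was 2.65-fold lower (-1.41 ± 0.14). The cornified-envelope gene Sprr2f differed by -4.58 ± 0.26, but in aERKO_DES it read 4.89, less than the background controls of that group (5.28). With values below 5.42, the highest background mean of any array, raised to 5.42, the Sprr2f difference was -4.06.

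Counting Esr1, Esr2 and Pgr, 2 of 11 steroid receptor and co-regulator genes were higher and 4 lower. The share called was 54.5%, near the 52.1% of all genes tested. The coactivator gene Ncoa3 was lower by -0.79 ± 0.09 (adjusted p = 3.2e-05 in limma), and the transcription factor gene Gata2 was higher by 0.94 ± 0.12 (adjusted p = 6.03e-05). Of genes that make or inactivate steroids, 6 of 11 were lower and 0 higher, with a median of -0.32. The share called was again 54.5%, near that of all genes tested, of which 24.6% were lower. Cyp7b1, a steroid hydroxylase, read 7.68, 8.10 and 7.58 in WT_DES and 6.22, 6.34 and 6.51 in aERKO_DES. Its difference was -1.43 ± 0.13 (adjusted p = 3e-06), and Cyp1b1, which hydroxylates estrogens, differed by -1.08 ± 0.11.

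RefSeq promoters (assembly GRCm38.p6) were read for the 250 bases before the start site, and 12694 of the genes tested had one, 566 of them lower and 93 higher by a fold of at least 2. The 3 shown were chosen from genes named here: Ltf and Cxcl13, 2 of the largest decreases, and Gad2 from the increases. They are printed on the gene's strand, 5′ to 3′. Capitals mark matches, on either strand, to GGTCA, 1 arm of the estrogen response element.
Ltf, chr9:111019042-111019291, plus strand: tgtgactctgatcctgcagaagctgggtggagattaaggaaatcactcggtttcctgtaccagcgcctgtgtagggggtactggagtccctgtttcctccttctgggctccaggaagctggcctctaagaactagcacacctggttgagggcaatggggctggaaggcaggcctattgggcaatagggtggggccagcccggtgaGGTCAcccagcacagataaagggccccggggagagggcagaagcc
Cxcl13, chr5:95956689-95956938, plus strand: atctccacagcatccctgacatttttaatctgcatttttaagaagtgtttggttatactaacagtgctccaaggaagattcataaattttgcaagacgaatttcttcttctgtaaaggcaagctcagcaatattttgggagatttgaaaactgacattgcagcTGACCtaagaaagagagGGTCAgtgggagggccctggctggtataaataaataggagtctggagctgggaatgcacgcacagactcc
Gad2, chr2:22622077-22622326, plus strand: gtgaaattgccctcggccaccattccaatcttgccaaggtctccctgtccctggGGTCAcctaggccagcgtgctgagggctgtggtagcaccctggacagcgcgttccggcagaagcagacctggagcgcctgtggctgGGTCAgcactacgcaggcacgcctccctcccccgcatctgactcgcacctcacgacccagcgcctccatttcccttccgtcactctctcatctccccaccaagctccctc
The GGTCA match of Ltf begins 45 bases before the start, and those of Cxcl13 begin 87 and 70 bases before it. Gad2, which was higher in aERKO_DES, holds GGTCA matches that begin 196 and 110 bases before its start.

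The full element GGTCANNNTGACC occurred in 4 of the 12694 promoters (0.0315%), in 0 of the 566 lower and in 0 of the 93 higher genes. The GGTCA arm was in 34.1% of promoters of the lower genes, 44.1% of those of the higher genes and 34.0% of all. The interferon-stimulated element GAAANNGAAA was in 9.54% of the lower genes, 3.23% of the higher genes and 2.65% of all. For the AP-1 site TGANTCA these shares were 10.6%, 7.53% and 4.96%, and for the ETS site GAGGAAG they were 19.3%, 17.2% and 11.1%. The NF-kB site GGGANTTTCC was in 1.24% of the lower genes, in none of the higher genes and in 0.378% of all. Every motif was searched on both strands, motifs can overlap one another, and a match describes the letters of this window, not binding.

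Immune and inflammatory transcripts were among the largest decreases. S100a8, the gene of a neutrophil protein that binds calcium, read 10.17, 10.74 and 10.24 in WT_DES and 3.49, 3.90 and 3.66 in aERKO_DES. Each aERKO_DES value lay below the background controls of that group, as did the vehicle means (3.67 in WT and 3.75 in aERKO). The measured difference was -6.70 ± 0.15 (limma adjusted p = 9.19e-12), and with values below 5.42 raised to 5.42 the difference was -4.97. S100a9, the partner of S100a8, was above background in both groups: 11.08, 11.69 and 11.02 in WT_DES against 6.14, 6.04 and 6.21 in aERKO_DES, 35.1-fold lower.

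Of 22 neutrophil genes, 17 were lower and 0 higher (median -1.86). The macrophage and dendritic cell list was lower throughout, with 30 of 30 genes called, 22 of them past a fold of 2, and a median of -2.02. Lyz2, the lysozyme gene of macrophages, read 12.70, 13.08 and 12.80 in WT_DES and 8.99, 8.27 and 8.58 in aERKO_DES (18.9-fold lower, adjusted p = 2.94e-09). Adgre1, which encodes a surface receptor of macrophages, differed by -3.12 ± 0.16, and Cybb, a subunit of the phagocyte oxidase, by -3.43 ± 0.15. Averaged over the macrophage list, the 3 aERKO_DES arrays lay at 6.96 to 7.13, the WT_DES arrays at 8.74 to 9.17, the WT_vehicle arrays at 6.92 to 7.11 and the aERKO_vehicle arrays at 6.92 to 6.97. In whole tissue, fewer cells of a type and less RNA per cell cannot be told apart.

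**Figure D1:**
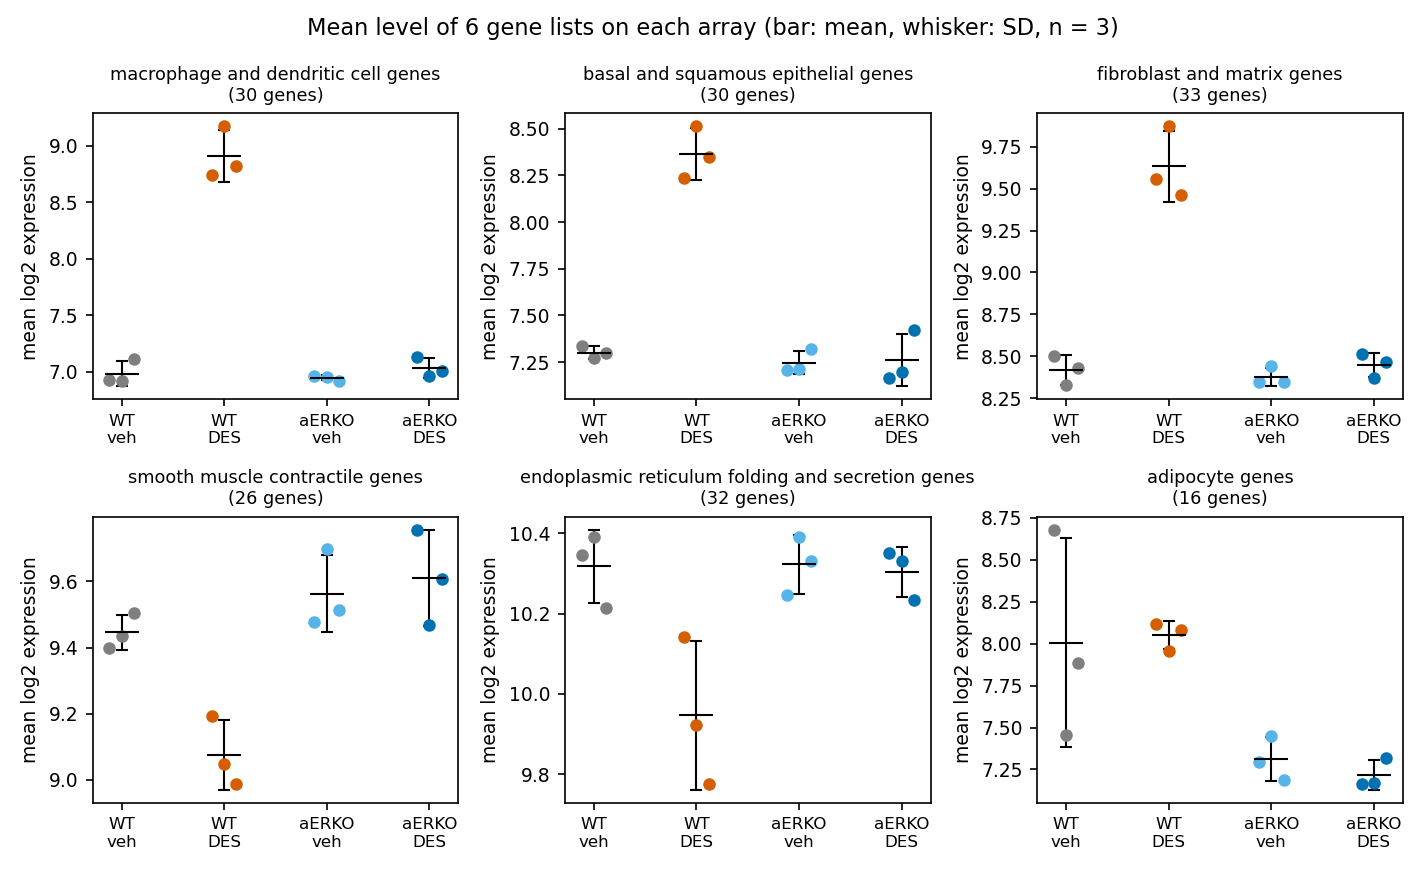
Mean log2 expression of the tested members of 6 gene lists on each of the 12 arrays (points), with the group mean (bar) and SD (whisker, n = 3); the vertical axes differ between panels. The WT_DES arrays stand apart from the other 9 in the macrophage, basal and squamous, fibroblast and smooth muscle panels. In the secretion panel they lie below the other 9, but WT_DES 1 (10.14) is close to WT_vehicle 3 (10.21). In the adipocyte panel WT_vehicle spreads from 7.46 to 8.68 and both aERKO groups lie at or below 7.45.

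B cell and antibody genes were also lower. The immunoglobulin heavy-chain gene Ighg2b had the smallest p of the comparison: 11.70, 11.61 and 11.65 in WT_DES against 6.30, 6.27 and 6.45 in aERKO_DES (-5.31 ± 0.08, adjusted p = 3.92e-13). Of 203 immunoglobulin variable segments named, 175 were tested, 173 were lower, 0 were higher and 163 passed a fold of 2, with a median of -4.18. Their mean level by array was 9.36 to 9.62 in WT_DES and 5.39 to 5.55 in aERKO_DES, with 5.41 to 5.69 in WT_vehicle and 5.40 to 5.51 in aERKO_vehicle. The filter asked for a value above the array's median on at least 3 arrays, and outside WT_DES that median was 6.03 or more. A segment could thus pass through the WT_DES arrays alone, so these counts and their median are partly set by the filter and only describe the segments. Segments share sequence with one another, so they are not independent of each other and single segments are not ranked.

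In the B and plasma cell list 18 of 21 genes were lower and 1 was higher (median -0.77). Ighm differed by -3.90 ± 0.17, and Jchain, which joins secreted antibodies into polymers, by -3.97 ± 0.16, although its aERKO_DES level (5.04) was below background. The 1 higher member was Derl3, a gene of endoplasmic reticulum quality control that secretory cells of many kinds express. Pigr carries polymeric antibody across epithelium. It read 11.35, 11.83 and 11.60 in WT_DES and 6.75, 6.79 and 7.15 in aERKO_DES, 26.0-fold lower (-4.70 ± 0.16, adjusted p = 1.97e-10). The T and natural killer cell list had 14 of 22 lower and 0 higher, with a median of -0.51. Its share called was 63.6%, against 52.1% of all genes tested.

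Cytokine, chemokine and acute phase genes were lower for 36 of 43 members and higher for 1 (median -1.68). Cxcl13, the chemokine that attracts B cells, read 12.29, 12.72 and 12.44 in WT_DES and 6.18, 6.93 and 6.58 in aERKO_DES. That is 60.6-fold lower (-5.92 ± 0.25, adjusted p = 1.95e-09), and no arrays overlapped. The cytokine gene Il1b was 25.8-fold lower, from 10.32, 11.22 and 10.17 to 6.00, 5.74 and 5.89. Serpina3n, an acute phase protease inhibitor, was 24.2-fold lower. Interferon response genes were lower for 25 of 27 (median -1.09), with the chemokine gene Cxcl9 at -4.16 ± 0.30 and the GTPase gene Gbp2 at -3.22 ± 0.20.

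Antigen presentation genes were lower for 17 of 18 (median -1.24), and complement genes for 17 of 20 (median -1.37), with 0 higher in either list. The class II gene H2-Ab1 was 4.60-fold lower and the complement factor gene Cfb 6.67-fold lower. Endothelial genes were lower for 18 of 23 and higher for 0. The largest endothelial difference was that of Vcam1, an adhesion receptor for leukocytes, which read 9.38, 9.78 and 9.33 in WT_DES and 6.86, 6.74 and 6.95 in aERKO_DES (-2.64 ± 0.11, adjusted p = 2e-09).

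Basal and squamous epithelial genes were lower for 22 of 30 members and higher for 3, with a median of -0.56. Gsdmc2, a member of the pore-forming gasdermin family, read 10.17, 10.76 and 10.07 in WT_DES and 4.91, 5.01 and 5.95 in aERKO_DES. The groups did not overlap, the difference was -5.04 ± 0.25 (adjusted p = 1.02e-08), and the aERKO_DES array numbered 3 was the highest of its group. The aERKO_DES mean of Gsdmc2 (5.29) was close to that of the background controls (5.28), and with values below 5.42 raised to 5.42 the difference was -4.74. Gsdmc3 read 5.30 in aERKO_DES, likewise near background, and differed by -4.43, or by -4.13 with values raised in that way. Because gasdermin C genes are close copies of one another, their separate values are uncertain. The keratin gene Krt4 of stratified epithelium differed by -2.92 ± 0.12, and Ly6d, a surface protein of squamous cells, by -3.44 ± 0.15.

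Krt5, the keratin of basal cells, read 11.10, 11.53 and 11.32 in WT_DES and 9.56, 9.57 and 9.60 in aERKO_DES (-1.74 ± 0.09, adjusted p = 1.33e-08). Trp63, the transcription factor gene of basal cells, was lower by a smaller amount (-0.41 ± 0.07, adjusted p = 0.00033). Gsdma, another gasdermin gene, went the other way and was 2.21-fold higher. Luminal epithelial genes were split, with 9 of 25 higher (all genes 27.5%) and 7 lower (all genes 24.6%) and a median of 0.12. With arrays shifted to the same median, 11 were higher and 6 lower (median 0.21). When arrays were shifted to the hybridization controls, 2 were higher and 7 lower, and the median was -0.10. Krt7 (-0.90 ± 0.09) and the cadherin gene Cdh1 (-0.75 ± 0.07) were lower, whereas the transcription factor gene Elf5 was higher (0.86 ± 0.13). Mucin and mucous-cell genes had 7 of 16 higher and 5 lower, and 1 higher and 5 lower under the shift to the hybridization controls. With arrays shifted to the same median, 9 were higher and 5 lower. The goblet-cell gene Clca1 had the largest called decrease of that list, -2.91 ± 0.14.

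Prol1, a gene of the proline-rich protein family, varied most among the large decreases. It read 13.39, 9.91 and 11.42 in WT_DES and 6.43, 6.32 and 6.92 in aERKO_DES. The difference was -5.02 ± 0.61 (adjusted p = 3.85e-05), and the SD within WT_DES was 1.75.

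Fibroblast and matrix genes were lower for 29 of 33 members and higher for 1 (median -1.07), with 18 past a fold of 2. Lum, which encodes the collagen-binding proteoglycan lumican, read 10.41, 11.00 and 10.30 in WT_DES and 6.86, 6.77 and 6.73 in aERKO_DES (13.8-fold lower, adjusted p = 8.59e-09). Dcn, which encodes decorin, was 4.21-fold lower. The Wnt inhibitor genes Sfrp1 and Sfrp4 differed by -2.34 ± 0.16 and -2.51 ± 0.18. Over all EGF, FGF, BMP and Wnt signal genes, 17 of 59 were higher and 19 lower, shares near those of all genes tested (27.5% and 24.6%). The split became 3 and 19 with arrays shifted to the hybridization controls, and 26 and 16 with arrays shifted to the same median.

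Smooth muscle contractile genes were higher for 20 of 26 members and lower for 1, with a median of 0.58. With arrays shifted to the hybridization controls 12 were higher, 1 was lower and the median was 0.36. With arrays shifted to the same median 23 were higher, 1 was lower and the median was 0.67. Actg2, the smooth muscle actin of hollow organs, read 11.19, 11.14 and 11.10 in WT_DES and 12.50, 11.97 and 12.17 in aERKO_DES (2.10-fold higher, adjusted p = 1.45e-05). Pgm5, a structural protein of muscle attachment sites, was higher by 0.96 ± 0.13. The 1 lower member was Mustn1 (-1.26 ± 0.15), a gene of muscle regeneration.

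The largest increase was that of Smpx, which encodes a small muscle protein. Smpx read 6.81, 6.06 and 6.20 in WT_DES and 8.99, 8.86 and 8.41 in aERKO_DES. All aERKO_DES arrays were above all WT_DES arrays, 5.27-fold higher by the means (2.40 ± 0.18, adjusted p = 6.21e-07). Doxl2, a diamine oxidase-like gene, was 5.03-fold higher, and Tent5d, a poly(A) polymerase gene, 4.52-fold. Gad2, the glutamate decarboxylase that makes the transmitter GABA, read 8.47, 7.69 and 7.47 in WT_DES and 10.30, 10.21 and 9.63 in aERKO_DES (2.17 ± 0.22, adjusted p = 7.49e-06). Within WT_DES, the array numbered 1 was the highest for Smpx, Doxl2, Tent5d and Gad2, so it lay nearest to aERKO_DES for each. Without it, 186 genes rather than 123 were higher by a fold of at least 2.

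**Figure D2:**
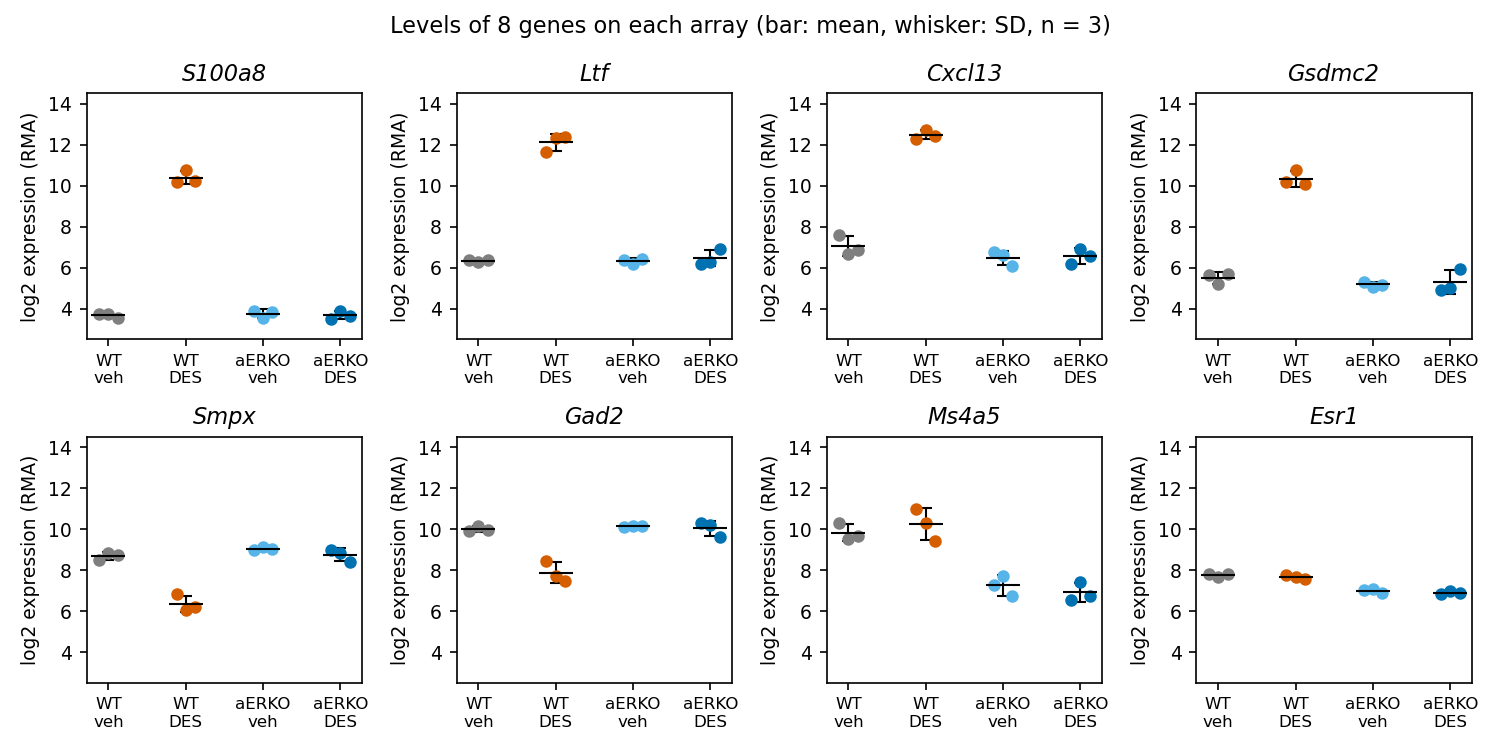
Log2 expression of 8 genes on each of the 12 arrays (points, array number from left to right within a group), with the group mean (bar) and SD (whisker, n = 3). S100a8, Ltf, Cxcl13 and Gsdmc2 are high in WT_DES and low in the other 3 groups, Smpx and Gad2 are low in WT_DES, and Ms4a5 and Esr1 are lower in both aERKO groups than in both WT groups.

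Single genes of transport, growth signals and secreted proteins were among the other increases. The transport and growth signal lists were split, and their members Slc5a8 (-1.91) and Egfr (-1.22) were lower. The rule for named genes does not give Egfr. Slc26a3, a chloride and bicarbonate exchanger, read 8.07, 7.28 and 6.94 in WT_DES and 9.46, 9.28 and 8.97 in aERKO_DES, 3.50-fold higher (adjusted p = 3.94e-05). Egf, which encodes epidermal growth factor, was 2.94-fold higher (1.56 ± 0.21, adjusted p = 0.000101). Pate8, a member of the Pate family of sperm-associated secreted proteins, was 4.28-fold higher, and Orm3, an orosomucoid gene, 3.64-fold. The transcription factor gene Tfap2b was 3.00-fold higher.

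Seminal vesicle secretory proteins were higher for 13 of 18 members and lower for 1 (median 0.32). With arrays shifted to the same median, 15 were higher and 1 was lower (median 0.40). With arrays shifted to the hybridization controls, 2 were higher, 1 was lower and the median was 0.10. Spink1, a protease inhibitor of seminal fluid, kept its call under that shift: it read 12.82, 12.24 and 11.64 in WT_DES and 13.34, 13.15 and 12.99 in aERKO_DES (0.93 ± 0.21, adjusted p = 0.00353). Svs2, the main clotting protein of the copulatory plug, was higher by 0.41 ± 0.08 and lost its call under the shift (0.19, adjusted p = 0.344). Svs4 did not pass the test (0.10 ± 0.06, adjusted p = 0.167). The 1 lower member was Gpx3, a secreted glutathione peroxidase (-1.26 ± 0.20).

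Genes of folding and secretion in the endoplasmic reticulum were higher for 20 of 32 and lower for 1 (median 0.34). The share called was 65.6%, against 52.1% of all genes tested. For these genes the counts became 24 and 0 with arrays shifted to the same median, and 4 and 1 under the shift to the hybridization controls. Derl3 led them, with 9.79, 8.80 and 8.71 in WT_DES and 10.77, 10.70 and 10.62 in aERKO_DES, 3.02-fold higher (adjusted p = 8.44e-05). Androgen-responsive genes were split, with 7 of 18 higher (all genes 27.5%) and 6 lower (all genes 24.6%). Under the shift to the hybridization controls 2 of them were higher and 7 lower, and with arrays shifted to the same median 8 were higher and 5 lower. Hpgd, which inactivates prostaglandins, was higher by 0.89 ± 0.09, and the metalloreductase gene Steap4 was lower by -1.95 ± 0.13. The prostate and coagulating gland list held 8 of 17 higher and 5 lower, and 3 higher and 7 lower under the shift to the hybridization controls.

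Cell cycle genes were lower for 28 of 38 members and higher for 2 (median -0.57). Mki67, the gene of the proliferation marker Ki-67, read 9.54, 10.00 and 9.90 in WT_DES and 8.27, 7.98 and 7.96 in aERKO_DES (-1.75 ± 0.25, adjusted p = 0.000158). Immediate early genes were lower for 11 of 27 and higher for 5, and oxidative defence genes lower for 18 of 34 and higher for 4, where 24.6% of all genes tested were lower and 27.5% higher. Under the shift to the hybridization controls, 12 immediate early genes were lower and 0 higher, and 20 oxidative defence genes lower and 1 higher. With arrays shifted to the same median, 10 immediate early genes were lower and 7 higher, and 15 oxidative defence genes lower and 6 higher. Gsto1, a glutathione transferase gene, was 6.90-fold lower. Among DNA methylation and chromatin enzyme genes 20 of 41 were lower and 4 higher, with Tet2 at -0.80 ± 0.13 and Dnmt3a at -0.23 ± 0.06. That split became 20 lower and 0 higher under the shift to the hybridization controls, and 14 lower and 8 higher with arrays shifted to the same median. Genital duct patterning genes had 10 of 28 higher and 9 lower, and solute carriers and channels 16 of 44 higher and 14 lower. The shares called were 67.9% and 68.2%, against 52.1% of all genes tested. Both splits turned under the shift to the hybridization controls, to 2 and 9 and to 8 and 16. With arrays shifted to the same median they were 12 and 7, and 22 and 13.

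Lists of other tissues and cell types were split, where 27.5% of all genes tested were higher and 24.6% lower. Skeletal muscle and nerve genes were called less often than all genes tested (36.4% and 35.7% against 52.1%), and the other lists below more often. Skeletal muscle genes had 4 of 22 higher and 4 lower, nerve and Schwann cell genes 3 of 14 higher and 2 lower, and mast cell and eosinophil genes 3 of 9 higher and 3 lower. Germ cell genes had 3 of 7 higher and 1 lower, epididymis and vas deferens genes 3 of 6 higher and 1 lower, and red blood cell genes 2 of 3 higher and 1 lower. Under the shift to the hybridization controls, at most 1 member of each of these 6 lists was higher. The housekeeping genes Gapdh and Actb were themselves lower, by -0.40 and -0.49.

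**Figure D3:**
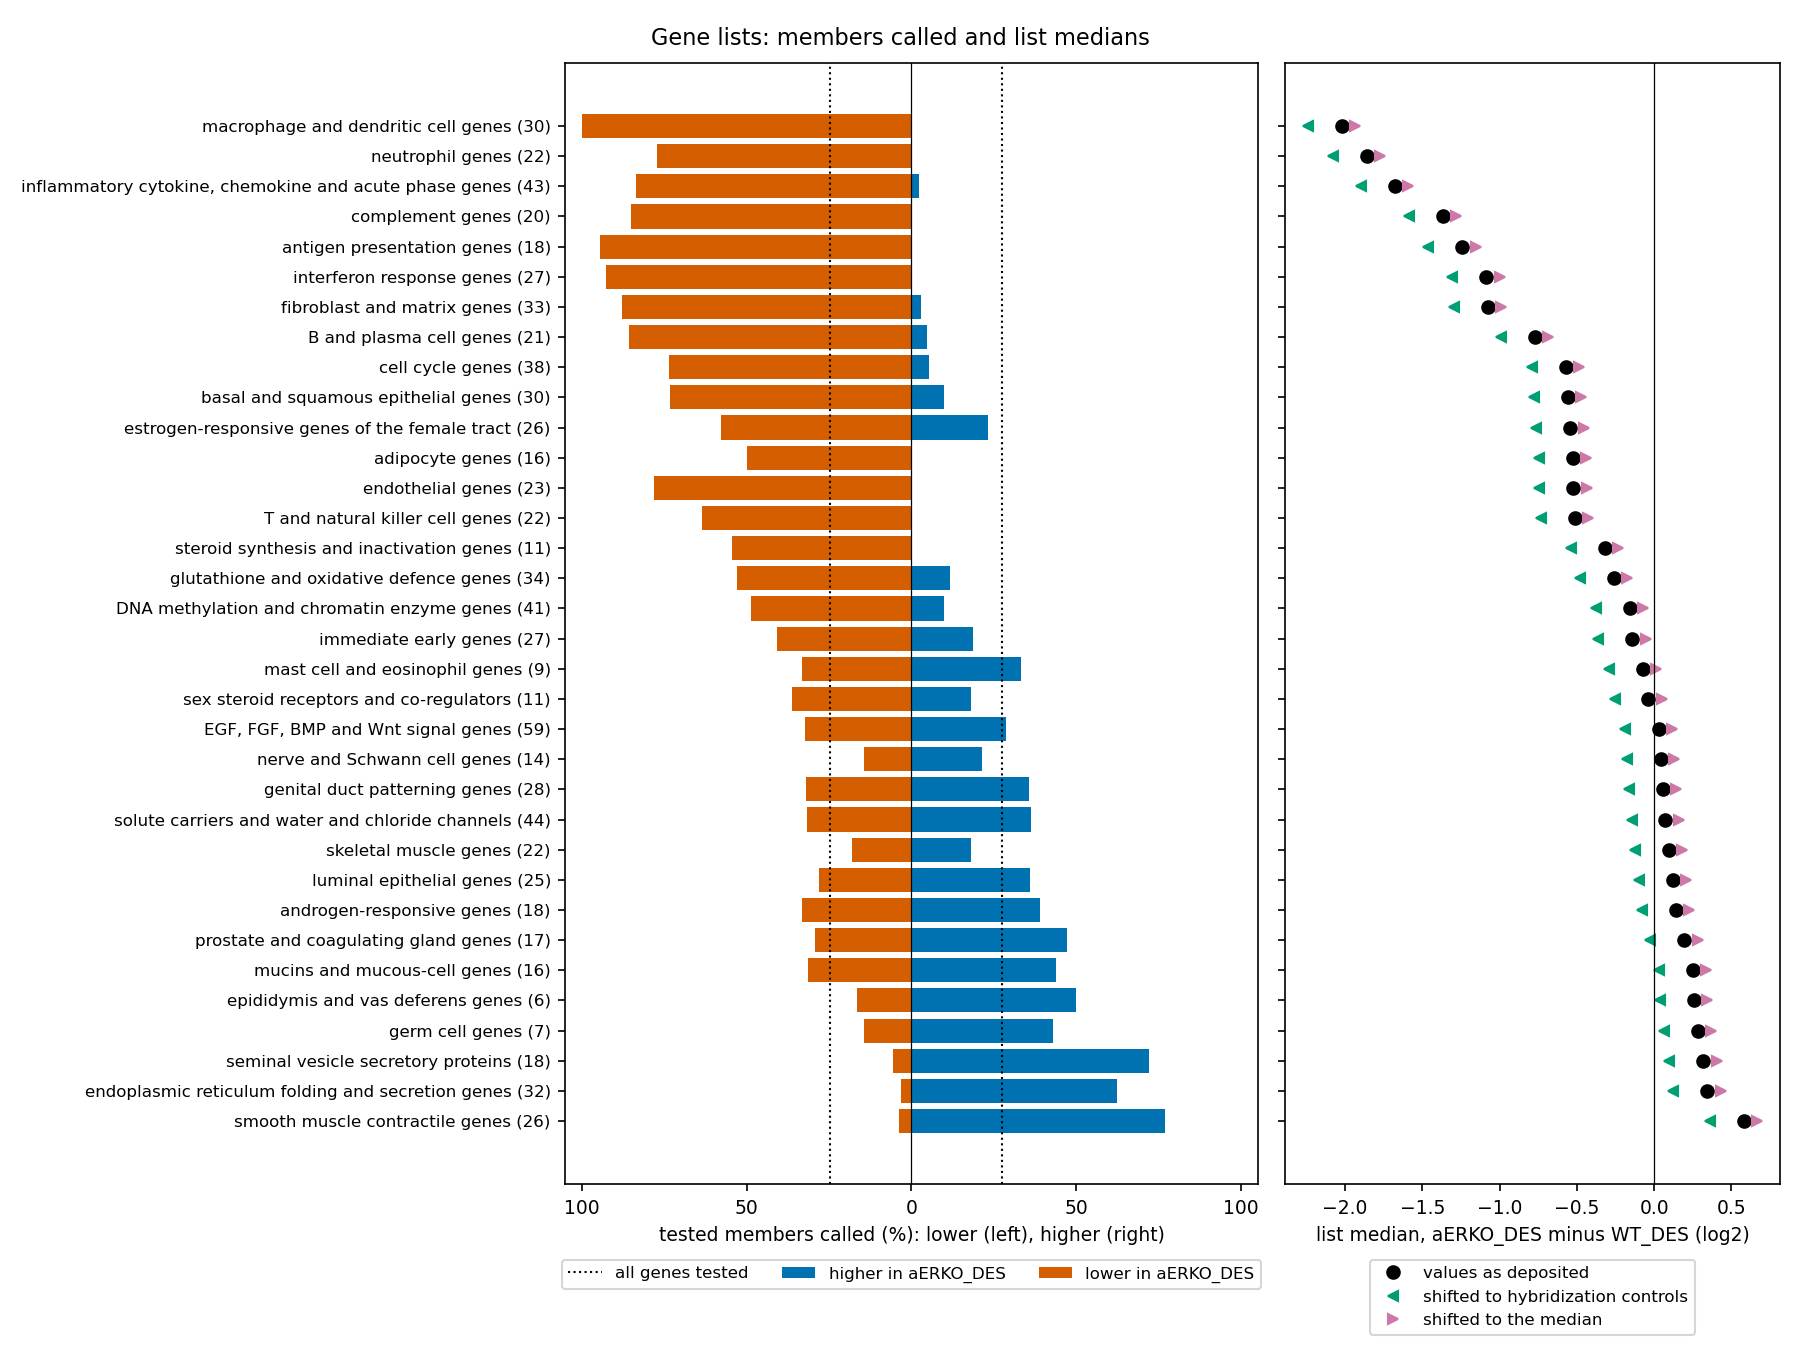
Left, the percentage of tested members of each gene list that were called lower (orange, to the left) or higher (blue, to the right) in aERKO_DES than in WT_DES, with the shares over all genes tested (24.6% lower and 27.5% higher) as dotted lines and the number tested in brackets. Right, the list median of the log2 difference with values as deposited and after each of 2 shifts of the arrays; smooth muscle genes had the highest median (0.58) and macrophage genes the lowest (-2.02) of the lists drawn, which had at least 6 members tested.

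The genotype difference given vehicle was measured on the other 6 arrays and shares none with the comparison after DES. Given vehicle 5 genes passed the test (0.0249%), and 864 had an unadjusted p below 0.05. Differences given vehicle ran from -0.16 to 0.15 between the 5th and the 95th percentile of genes, against -0.98 to 0.50 after DES. The 970 genes that were lower after DES had a median of -0.06 given vehicle, 668 below 0 and 302 above. The 123 that were higher had a median of 0.22, 105 above 0 and 18 below, where all genes fell 50.0% on either side. Across genes, the 2 sets of differences had a Pearson correlation of 0.31 and a Spearman correlation of 0.30, a description over genes, which are not independent replicates.

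**Figure D4:**
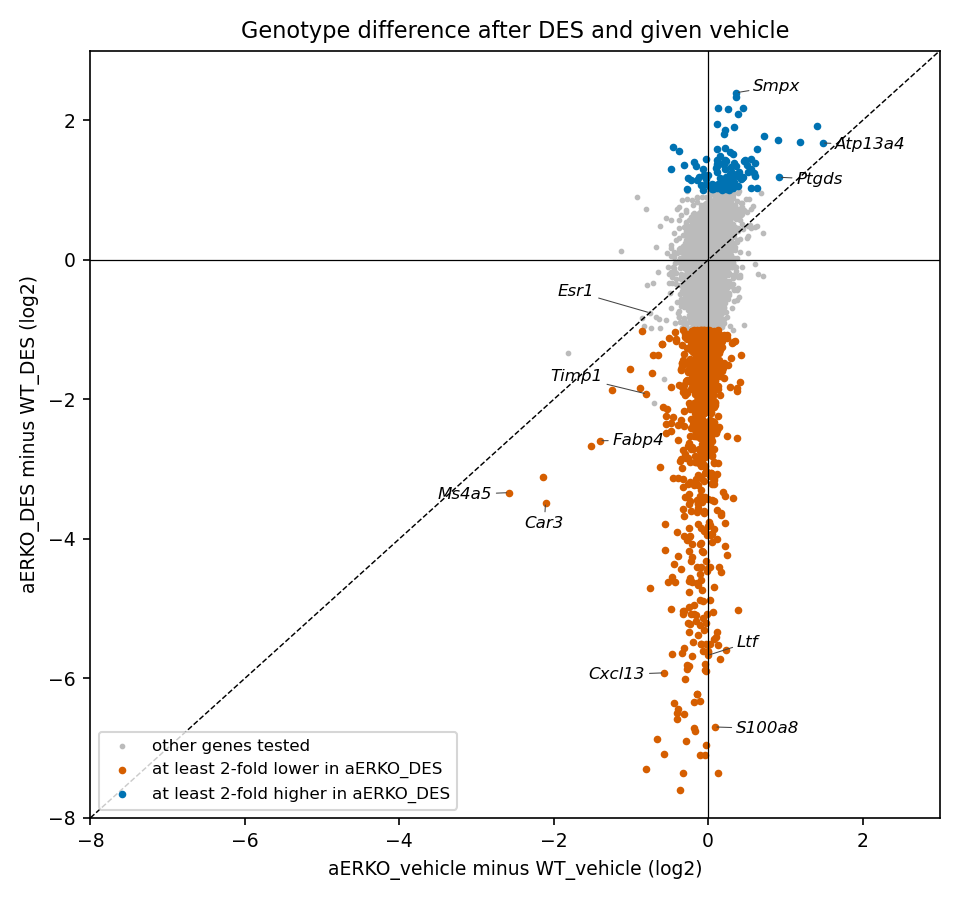
Each point is 1 of the 20102 genes tested, with the log2 difference between genotypes given vehicle on the horizontal axis and after DES on the vertical axis; the dashed line marks equal differences. The genes past a fold of 2 after DES (970 orange, 123 blue) lie mostly near 0 on the horizontal axis, and Ms4a5, Car3, Fabp4 and Atp13a4 are among the few far from it.

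The 5 genes called given vehicle were called with the same sign after DES. Ms4a5, a member of the membrane-spanning 4-domain family, read 10.98, 10.32 and 9.43 in WT_DES and 6.54, 7.42 and 6.76 in aERKO_DES (-3.34, adjusted p = 1.62e-05), and it differed by -2.59 given vehicle (adjusted p = 0.0493). Atp13a4, a cation-transporting ATPase gene, read 5.65, 5.39 and 5.65 in WT_DES and 7.49, 7.36 and 6.87 in aERKO_DES, a difference of 1.68 after DES and 1.48 given vehicle. Ptgds, which makes prostaglandin D2, was higher by 1.18 after DES and 0.92 given vehicle. For these genes the difference between the 2 comparisons did not pass the test (adjusted p = 0.299 for Ms4a5, 0.549 for Atp13a4 and 0.258 for Ptgds), which does not show that they were equal.

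The other two were Esr1, described above, and Timp1, which encodes an inhibitor of matrix metalloproteinases. Timp1 was lower by -1.92 ± 0.09 after DES (adjusted p = 3.08e-09) and by -0.80 given vehicle (adjusted p = 0.00587). Its difference was larger after DES by -1.12 (adjusted p = 2.98e-05). Without the WT_vehicle array numbered 3, no gene was called given vehicle.

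A test of the difference itself, genotype by DES, called 4679 genes (23.3%), 1841 with a positive and 2838 with a negative interaction. It uses the same DES arrays, so it is a description for genes chosen by their difference after DES: 944 of the 970 lower genes and 111 of the 123 higher genes were called. Of the genes not called, 7 lower ones were also at least 2-fold lower given vehicle. These were Ms4a5, Car3, Fabp4, Retn, Cd36, Cyp2e1 and Ptgs2, the last 3 of which the rule for named genes does not give and which were picked once their values had been seen. The 3 higher ones of that kind were Atp13a4, Rarres1 and Ankrd1.

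Car3, a carbonic anhydrase gene abundant in fat cells, read 10.45, 10.26 and 10.44 in WT_DES and 6.79, 6.88 and 7.04 in aERKO_DES (-3.48 ± 0.56, adjusted p = 0.000333). Given vehicle it differed by -2.11 (adjusted p = 0.604), with WT_vehicle arrays at 11.22, 8.30 and 9.38. Fabp4, the fatty acid-binding protein of fat cells, differed by -2.59 after DES and by -1.40 given vehicle (adjusted p = 0.738), with WT_vehicle arrays at 9.04, 6.68 and 7.70. The spread of WT_vehicle was thus far wider than that of WT_DES for both genes.

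Over the adipocyte list, 8 of 16 genes were lower after DES and 0 higher, with a median of -0.53 after DES and -0.55 given vehicle. The share called after DES was 50.0%, near the 52.1% of all genes tested, of which 24.6% were lower. The list's mean level was 7.16 to 7.32 on the aERKO_DES arrays, 7.96 to 8.11 in WT_DES, 7.46 to 8.68 in WT_vehicle and 7.19 to 7.45 in aERKO_vehicle. For no member did the interaction pass the test. The amount of fat on the dissected glands is not given in the labels, and its part in these differences was not tested.

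Rarres1, a retinoid-responsive gene, read 6.01, 5.62 and 5.89 in WT_DES and 8.17, 7.74 and 7.37 in aERKO_DES, a difference of 1.92 after DES and 1.41 given vehicle (adjusted p = 0.0706). Ankrd1, which encodes an ankyrin repeat protein induced in stretched muscle, differed by 1.68 after DES and 1.19 given vehicle (adjusted p = 0.449).

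The levels in aERKO_DES were set beside those in aERKO_vehicle, a comparison that shares the aERKO_DES arrays with the one above. No gene passed the test between aERKO_DES and aERKO_vehicle (0%; the smallest adjusted p in limma was 0.999), and 264 had an unadjusted p below 0.05. Between the 5th and the 95th percentile of genes the difference ran from -0.15 to 0.13. For the 970 lower genes aERKO_DES minus aERKO_vehicle had a median of 0.04 and ranged from -0.64 to 1.14, and 969 lay within 1 log2 unit. For the 123 higher genes the median was -0.09 and the range -0.52 to 0.33. In single genes, aERKO_DES and aERKO_vehicle read 6.45 and 6.33 for Ltf, 6.56 and 6.47 for Cxcl13, 8.62 and 8.33 for Lyz2, 9.58 and 9.63 for Krt5, and 8.75 and 9.05 for Smpx.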

How the data were processed

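Total RNA from seminal vesicles was hybridized to 12 Affymetrix arrays, 3 in each of 4 groups that the titles in the labels name. Each deposited value is the log2 expression of a probe set; the submitters' processing notes name RMA and Affymetrix Expression Console as the authors' tools. RMA corrects background and equalizes value distributions between arrays, so a large block of changed genes can shift the others slightly. Their versions and settings and the build were not given in the sources used here.

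Of 72688 probe sets, 30604 had 1 symbol, 2146 several and 39938 none, and 1135 symbols were updated through the GRCm38.p6 gene table. Filtered log2 values were fitted with limma 3.58.1 (lmFit, eBayes; R 4.3.3) over all 12 arrays with a mean per group, 8 residual and 4.33 prior degrees of freedom, two-sided tests and p-values adjusted by Benjamini-Hochberg over 20102 genes. SE is limma's. The fit was tested on simulated data. Permuting 3 arrays against 3 exactly gives no p below 0.1, so this was not done. Promoters came from RefSeq and were read over 250 bases.

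The gene lists (35, with 837 of 1024 entries tested) and the comparison itself were chosen with earlier results of these data known. Named genes are the 15 largest increases and 15 largest decreases whose groups did not overlap, without provisional names, small RNAs or segments of antibody and T cell receptor genes, up to 4 members of each list with the largest called differences, those called in other comparisons, and fixed genes. Not all are printed. Some fixed genes are not reported here.

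Alternatives changed 1 choice at a time: the filter, probe sets, moderation, samples in the fit, array weights, scaling, replicate block, arrays left out and, chosen after seeing the data, a floor at the background controls (5.42).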

Additional observations from a re-analysis of the deposited data

Results flagged for a closer look

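The difference between genotypes after DES differed from that given vehicle for 4679 of the 20102 genes by the interaction test in limma, 1841 upwards and 2838 downwards.

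A signal also appeared in probe sets that the comparison did not use, those without a single gene symbol. Of 14592 such probe sets tested in the same way, 5443 were called between aERKO_DES and WT_DES, 3457 higher and 1986 lower, with 92 higher and 584 lower by a fold of at least 2. Given vehicle 1 of them was called between genotypes.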

How the results depend on the processing

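With arrays shifted to the hybridization controls, 6378 genes were called between aERKO_DES and WT_DES, 553 of them higher, and 58 were higher by a fold of at least 2. Under that shift the vehicle comparison called 14 genes and the interaction 2939, and 8 list medians changed from above to below 0: androgen-responsive (-0.08), luminal epithelial (-0.10), EGF, FGF, BMP and Wnt signal (-0.19), genital duct patterning (-0.17), solute carrier and channel (-0.15), prostate and coagulating gland (-0.02), skeletal muscle (-0.13) and nerve genes (-0.18). After the shift to the same median, those of the steroid receptor list (0.05) and of the mast cell and eosinophil list (0.01) rose above 0. The stricter filter left 557 genes lower by a fold of at least 2. Array weights gave 80 calls given vehicle and 8164 for the interaction, in a fit that warned of incomplete convergence, and a fit of the compared groups alone gave 8 given vehicle. The cause of these changes was not tested. The stricter filter tests fewer genes, and as it asks for 6 arrays, a gene above it on the 3 WT_DES arrays alone cannot pass.

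Leaving out 1 array at a time gave 7614 to 10947 calls after DES, 3503 to 5728 higher, 4111 to 5219 lower, 98 to 186 higher and 879 to 1038 lower by a fold of at least 2, 0 to 4 given vehicle, 3401 to 5713 for the interaction and 0 to 1 for aERKO_DES against aERKO_vehicle. The count of higher genes was 3503 without the WT_DES array numbered 2, and 186 were higher by a fold of at least 2 without the WT_DES array numbered 1. Given vehicle 0 genes were called without the WT_vehicle array numbered 3, 3 without WT_vehicle 1 or 2, and 2 without aERKO_vehicle 2 or 3. Between aERKO_DES and aERKO_vehicle 1 gene was called without aERKO_DES 1 and 1 without aERKO_DES 2.

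The values do not settle whether replicate numbers pair the samples. Deviations of same-numbered DES arrays correlated at 0.0998, 0.180 and 0.456, and those of differently numbered arrays at -0.335 to 0.268. The pair numbered 3 was the highest of all, whereas aERKO_DES 1 and 2 each correlated best with an array of another number. With the replicate block, 6149 genes were higher and 5317 lower after DES, 123 and 973 by a fold of at least 2, with 4 called given vehicle, 5991 for the interaction and 0 for aERKO_DES against aERKO_vehicle. Without both DES arrays numbered 3, 122 of the 123 and 964 of the 970 genes past a fold of 2 kept their call. Of 159 named genes, 138 kept direction and side of the threshold in all 19 settings that apply. In aERKO_DES, 140 of the 970 lower genes lay below the background controls, so their differences are not measured on both sides.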
